A study of Danio rerio with 12 samples.

Results

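Unnamed loci apart from annotated genes are stretches of the zebrafish genome to which the authors' tables give a running number in place of a gene name, and whose span overlaps no other listed gene or locus on either strand. The loci were selected on their mean FPKM (fragments per kilobase of locus, scaled to the reads of the library), which had to be at least 1 over the 12 heart libraries. Each is named below by its deposited length, in bases, and its position, and at later mentions by the length alone, which no other locus named below shares. Of 50640 rows in the tables, 15524 were unnamed loci, 5046 of these overlapped no other row, and 2601 of those reached the limit. The level that chose them is therefore a description of the loci and not a finding. Just inside the limit stood the 565-base locus at 29939479 to 29940043 on chromosome 15 at a mean of 1.0 FPKM, and just outside it stood the 5409-base locus on chromosome 23 at 0.999 FPKM.

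The hearts came from zebrafish of 6, 12, 24 and 36 months kept under standard conditions, with 3 libraries of total RNA at each age sequenced on the Illumina HiSeq. Strain, sex and whether a library held 1 heart or several are not given in the labels, and no fish was treated. Nothing in the labels says that the 3 libraries of an age came from separate animals. The p-values below rest on the differences among these libraries, which may be technical. Alignment was to the GRCz11 build per the submitters' processing notes, and all positions are in that build.

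RNA that assembles outside known genes can come from several kinds of transcript. Long non-coding RNAs, exons missing from the annotation, 3′ ends that run past an annotated stop and copies of mobile DNA elements are all known sources in vertebrates. The zebrafish genome is rich in mobile elements, both DNA transposons, which move by a cut-and-paste enzyme, and retrotransposons, which copy themselves through RNA. The tables list a sequence, start, end, strand, length and, for some loci, a Pfam protein domain, so position and domain are the only clues to identity used here.

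Each library held 7333060 to 11145869 reads in listed genes, and the 2601 loci took 2.07% to 2.47% of them. Of 14 heart muscle markers, 7 reached 1 FPKM, and the list summed to 6023 to 7563 FPKM at 6 months, 8195 to 11658 at 12, 6200 to 7466 at 24 and 5058 to 6847 at 36 months. The heart markers vmhc and tnnt2a stayed under 1 FPKM in every library and tnnc1a was listed at 0. Liver markers summed to 183 FPKM in 6-month replicate 1 and to 666 FPKM in 12-month replicate 2, against at most 60.6 FPKM in the other libraries. A list of gill, thymus and immune markers summed to 40.3 to 187 FPKM at 6 months, 169 to 341 at 12, 419 to 1421 at 24 and 109 to 772 at 36 months. Red blood cell markers summed to 2168 to 5634 FPKM at 6 months, 5722 to 6671 at 12, 1209 to 2947 at 24 and 2475 to 4008 at 36 months. The part of these differences in the results was not tested, and in whole hearts fewer cells of a type and less RNA per cell cannot be told apart.

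The loci were short and low. Their median level was 2.15 FPKM, against 6.47 FPKM for 9926 protein-coding genes, 2.53 FPKM for 224 lincRNA genes (long intergenic non-coding RNAs) and 2.53 FPKM for 3129 other unnamed loci held to the same limit. Their median length was 1245 bases, with a range of 201 to 23100, against 2339 bases for protein-coding genes, 925 for lincRNA genes and 3302 for the other unnamed loci. The median over the loci was 2.23 to 2.39 FPKM in the libraries of 6 months, 2.15 to 2.19 at 12, 2.03 to 2.22 at 24 and 2.06 to 2.27 at 36 months. The libraries of 6 months stood above all of 12 and 24 months in that median and overlapped those of 36 months.

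**Figure D1:**
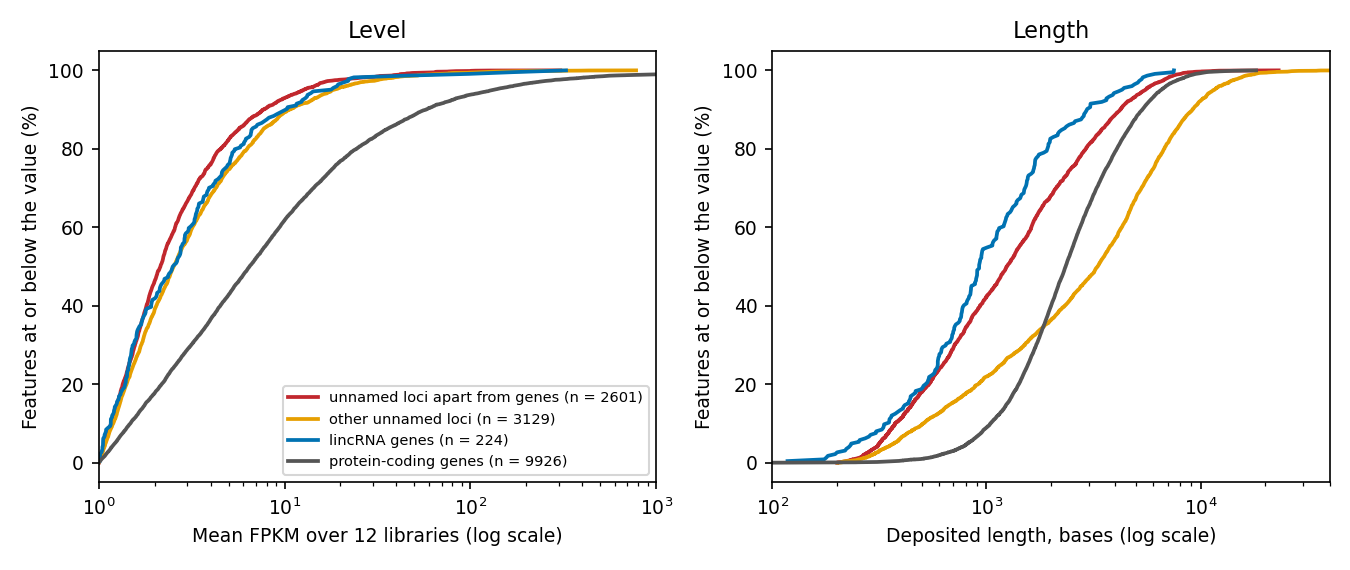
Cumulative share of features (vertical axis, percent) at or below a mean FPKM over 12 libraries (left, log scale) or a deposited length in bases (right, log scale), for the unnamed loci apart from genes and for 3 other classes held to the same limit of 1 FPKM. The unnamed loci apart from genes have a median of 2.15 FPKM and 1245 bases, against 6.47 FPKM and 2339 bases for protein-coding genes.

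Few reads stood behind most of these values. On a locus of 1 kilobase, 1 read was worth 0.0878 to 0.136 FPKM, and the median locus had a mean of 28.3 reads per library. A mean under 10 reads was found for 593 loci, or 22.8%, against 1.1% of protein-coding genes. Reads were present in all 12 libraries for 2063 loci, and 538 were listed at 0 in at least 1 library. The median standard deviation within an age was 0.41 on the log2(FPKM + 1) scale for the loci, against 0.29 over all 16223 features tested.

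Most of the loci were single blocks. A span equal to the length, which means a single block, with no strand recorded, was found for 1539 loci (59.2%). Another 477 were single blocks with a strand, and 585 (22.5%) spanned more sequence than their length and so joined several blocks. Reads from a locus with no strand cannot be assigned to either direction, and a transcript antisense to it cannot be told apart. The longest were the 23100-base locus at 45545154 to 45568253 on chromosome 3, the 17093-base locus at 42638379 to 42655471 on chromosome 12 and the 12195-base locus at 30794072 to 30807868 on chromosome 13. Their mean levels were low, at 1.35 FPKM for the 23100-base locus, 1.68 FPKM for the 17093-base locus and 2.72 FPKM for the 12195-base locus, and none of the 3 passed a test between ages.

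Unplaced scaffolds, which are pieces of the assembly not assigned to a chromosome, carried 262 of the loci (10.1%), against 1.12% of protein-coding genes and 12.5% of lincRNA genes. Among chromosomes, number 5 held the most, with 152, and number 14 the fewest, with 53. Per 100 tested protein-coding genes there were 14.8 loci on chromosome 14 and 30.2 on chromosome 17.

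The highest was the 2085-base locus at 38951950 to 38956541 on chromosome 4, plus strand, with a mean of 304.6 FPKM and no domain listed. It had 159, 205 and 264 FPKM at 6 months, 274, 300 and 173 at 12, 216, 274 and 367 at 24, and 467, 249 and 706 at 36 months. The 36-month values overlapped those of 6 months, and the difference of 1.08 (SE 0.36) on the log2(FPKM + 1) scale missed the threshold with limma (adjusted p = 0.0931). The next was the 1864-base locus at 4757023 to 4761833 on chromosome 3, at a mean of 127.5 FPKM, which carries a myosin tail domain, the rod by which myosin heavy chains assemble into thick filaments. It had 130, 133 and 114 FPKM at 6 months, 114, 113 and 86.9 at 12, 101, 122 and 101 at 24, and 124, 212 and 179 at 36 months. The values of 36-month replicates 2 and 3 stood above every other library, while that of replicate 1 lay among the 6-month values, and the difference missed the threshold (0.41, SE 0.19, adjusted p = 0.204).

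Several other high loci lay just downstream of named genes. The 1124-base locus at 7640779 to 7641902 on chromosome 24 (mean 81.8 FPKM) lies 1940 bases downstream of cavin1b, whose product coats caveolae, and ranged over 71.6 to 87.1 FPKM in 11 libraries with 130 FPKM in 36-month replicate 3. The 3847-base locus at 2502489 to 2506335 on chromosome 16 (mean 76.8 FPKM) lies 1005 bases downstream of tgfb2, a secreted growth factor, and ranged from 30.0 FPKM in 36-month replicate 2 up to 162 FPKM in 6-month replicate 2. The 2422-base locus at 25370604 to 25373025 on chromosome 17 (mean 83.7 FPKM) lies 1108 bases downstream of fam167b, and the 797-base locus at 12527974 to 12528770 on chromosome 15 (mean 66.1 FPKM) 56 bases downstream of tmprss4a, which encodes a membrane serine protease. The genes cavin1b, tgfb2 and fam167b averaged 93.9, 152.7 and 176 FPKM over the libraries, while tmprss4a averaged only 0.0887 FPKM. None of these 4 loci passed a test between ages. Of the remaining high loci, the 1598-base locus at 26826657 to 26828296 on chromosome 4 (mean 100.2 FPKM) passed the F test across ages (adjusted p = 0.0332). Its 24-month libraries held 170, 86.3 and 177 FPKM, against 25.6, 33.6 and 58.9 FPKM at 12 months, and these groups did not overlap. The adjusted p for that pair was 0.0519. The F call ended without any 1 of 8 libraries, with an adjusted p of up to 0.0874. The 1224-base locus on an unplaced scaffold (mean 106.2 FPKM) and the 1985-base locus at 17486163 to 17494900 on chromosome 23 (mean 75.1 FPKM) passed no test between ages.

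Being apart from annotated genes did not mean being far from them. A gene with an Ensembl identifier lay on the same sequence for 2461 loci, at a median distance of 1979 bases (quartiles 626 and 6483, range 1 to 184066). The distance was under 1 kb for 836 loci, 1 to 5 kb for 892, 5 to 20 kb for 454 and 20 kb or more for 279. The nearest gene was protein-coding for 84.2%. Of the 2461 loci, 1820 (74.0%) lay downstream of that gene by its strand. The downstream share was 87.1% under 1 kb, 72.6% at 1 to 5 kb, 61.0% at 5 to 20 kb and 59.9% at 20 kb or more. Loci under 1 kb away had a median level of 2.57 FPKM, and those at 20 kb or more had 1.66 FPKM.

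Between 36 and 6 months, 173 of the 2601 loci (6.65%) passed the test (limma on log2(FPKM + 1), two-sided, Benjamini-Hochberg adjusted p under 0.05 over all 16223 features), 71 of them higher and 102 lower at 36 months. The same test called 8.25% of all features, 3.95% as higher and 4.3% as lower. The loci were thus called at a share close to the background. At matched levels the shares were nearly the same: 4.41% of loci and 4.36% of all features between 1 and 2 FPKM, 7.35% and 7.67% between 2 and 5, 10.9% and 11.8% between 5 and 10, and 11.4% and 10.6% at 10 FPKM or more. The median difference over the loci was -0.04 and that over all features 0.00 on the log2(FPKM + 1) scale. In all 173, or 6.65% of the loci, the 3 libraries of 36 months did not overlap the 3 of 6 months, against 8.22% of all features both called and not overlapping. A call nearly always came with this separation, which held for 1334 of the 1338 features called. Of the 173, 45 (25 higher, 20 lower) stayed called when any 1 of the 12 libraries was left out. The matching share over all features is not given here. In each of these fits the loci were still those admitted on all 12 libraries. The 25 include loci that reached 1 FPKM only through the 36-month libraries, among them those of 360, 2752, 248, 775 and 684 bases, described below. The count over the loci was 61 without 36-month replicate 2, 91 without 36-month replicate 1, 97 without 36-month replicate 3, 89 without 6-month replicate 2 and 97 without 6-month replicate 3. Without 6-month replicate 1 it rose to 232.

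**Figure D2:**
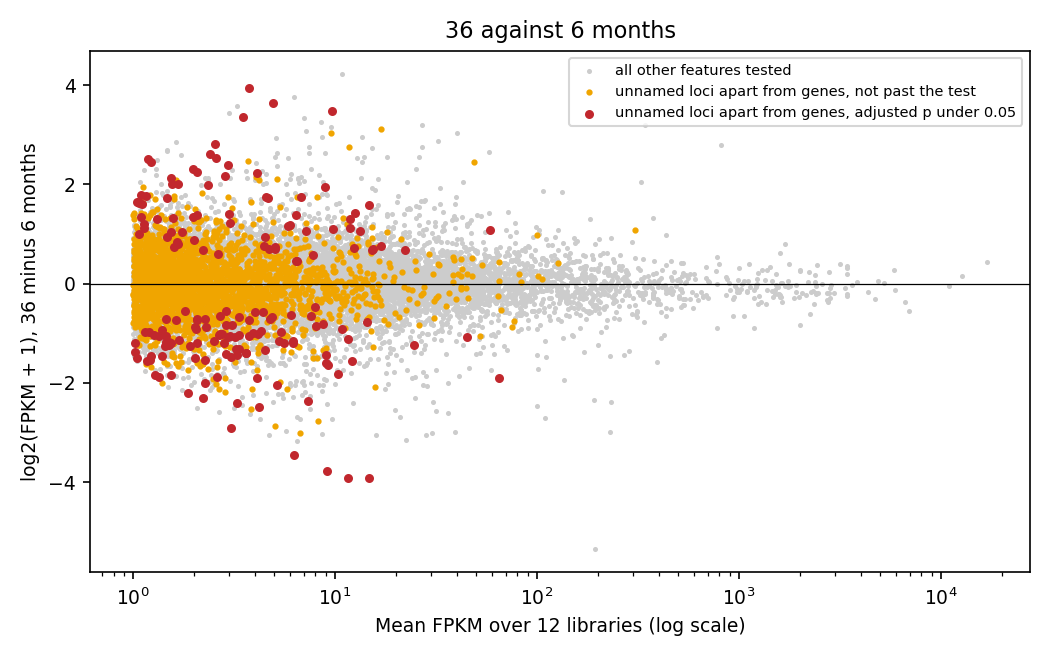
Difference in mean log2(FPKM + 1), 36 minus 6 months (vertical axis), against mean FPKM over 12 libraries (log scale), for each of 16223 features. Unnamed loci apart from genes are coloured, and the 173 past the test are dark red, 71 above and 102 below zero.

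The limit of 1 FPKM bears on the rises. Of the 71 loci called higher at 36 months, 22 (31.0%) averaged under 1 FPKM over the 9 younger libraries, so they were admitted only through the age where they were high and had to differ, against 9.83% of all features called higher. Of the 102 called lower, 11 (10.8%) averaged under 1 FPKM over the 9 libraries that were not of 6 months, against 5.02% of all features called lower. Among the 10 largest rises this holds for the loci of 360, 2752, 449, 248, 775 and 1513 bases, whose values and p-values below are descriptions. None of the 10 largest falls averaged under 1 FPKM without the 6-month libraries.

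The 360-base locus at 10022931 to 10023290 on chromosome 2, a single block, had 16.6, 16.1 and 11.2 FPKM at 36 months, against 0 FPKM in all 3 libraries of 6 months. No library of 24 months held a read either, and the locus had 0.285, 0.316 and 0.244 FPKM at 12 months, where each value is 1 read. The 36-month values were 44, 52 and 35 reads. The difference at 36 against 6 months was 3.95 (SE 0.19, adjusted p = 7.61e-06) on the log2(FPKM + 1) scale, which understates changes of low loci. The nearest gene, 647 bases away, is anxa13l, of the annexin family of membrane-binding proteins. That gene differed by -0.57 (adjusted p = 0.461).

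The 2752-base locus at 593555 to 596306 on chromosome 22 behaved in a like way. It had 15.5, 20.8 and 19.4 FPKM at 36 months, against 0.345, 0.876 and 0.528 FPKM at 6 months, and no library of 12 or 24 months exceeded 0.516 FPKM. Every library of 36 months stood far above all 9 younger libraries (difference 3.63, SE 0.21, adjusted p = 1.9e-05). The 248-base locus at 42595605 to 42595852 on chromosome 8 was the only locus of the 2601 with reads at 36 months alone. It had 5.49, 4.05 and 4.66 FPKM there, which is 10, 9 and 10 reads, and was listed at 0 in the other 9 libraries (adjusted p = 0.000655). The 775-base locus at 34232354 to 34233128 on chromosome 8 had 5.62, 5.33 and 3.43 FPKM at 36 months, against 0, 0 and 0.134 FPKM at 6 months (adjusted p = 0.000928). These 4 loci kept their calls when any 1 library was left out, and all 4 owe their admission to the 36-month libraries. The call of the 248-base locus ended with a pseudocount of 0.1.

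The 982-base locus on an unplaced scaffold lies 1216 bases past the end of ASS1 and on the opposite strand. ASS1 encodes argininosuccinate synthase, an enzyme of arginine synthesis. The locus had 34.5, 24.7 and 30.1 FPKM at 36 months, against 1.36, 1.84 and 2.11 FPKM at 6 months (difference 3.47, SE 0.29, adjusted p = 0.000587). ASS1 itself averaged 14.8 ± 4.46 FPKM at 36 months and 1.66 ± 0.569 FPKM at 6 months (SD, n = 3 each), a difference of 2.56 (limma, adjusted p = 0.0105). Both the locus and the gene were higher in every library of 36 months than in any of 6 months. The locus stayed called without any 1 library.

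The other 5 of the 10 largest rises were uneven among libraries. The 628-base locus at 47512800 to 47513427 on chromosome 4 had 5.42, 8.0 and 18.0 FPKM at 36 months, against 0 FPKM in each library of 6 months, and 12-month replicate 2 held 10.5 FPKM. The 1284-base locus at 54062104 to 54063387 on chromosome 5 had 4.88, 5.13 and 8.99 FPKM at 36 months, against 0.074, 0.375 and 0.242 FPKM at 6 months, and the same 12-month replicate 2 held 10.1 FPKM. That library is the 1 with the highest sum of liver markers, and the 36-month libraries had liver sums of 2.85 to 15.2 FPKM. Any part of liver tissue in these values was not tested. The 449-base locus at 24324267 to 24324715 on chromosome 20 had 0.606, 21.1 and 8.74 FPKM at 36 months, against 0 FPKM in each library of 6 months. The 321-base locus at 15035223 to 15036560 on chromosome 5 had 4.24, 11.8 and 3.60 FPKM at 36 months, against 0, 0 and 0.323 FPKM at 6 months. In both of these replicate 2 was the highest library of 36 months.

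The 1513-base locus at 38159764 to 38162263 on chromosome 5 lies 5975 bases downstream of cxcl11.8, which encodes a chemokine, a signal that attracts immune cells. It had 13.6, 13.9 and 2.06 FPKM at 36 months, against 1.95, 0.159 and 0.343 FPKM at 6 months (adjusted p = 0.0281). The groups came close, since the lowest value of 36 months, 2.06 FPKM, stood just above 1.95 FPKM in 6-month replicate 1. The immune marker sum was 772 FPKM in 36-month replicate 1, 303 in replicate 2 and 109 in replicate 3. Its part in the result was not tested.

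The calls of those 5 rises depended on single libraries. For the 628-base locus the adjusted p reached 0.0849, and the call ended without any 1 of the 36-month libraries or 6-month replicates 2 and 3. For the 1284-base locus it reached 0.11, and the call ended without any 1 library of 6, 24 or 36 months. For the 321-base locus it reached 0.115, and the call ended without any 1 library of 6 or 36 months. For the 449-base locus it reached 0.104, and the call held only without 12-month replicate 2, 12-month replicate 3 or 36-month replicate 1. For the 1513-base locus it reached 0.0946, and the call ended without 36-month replicates 1 or 2 or 6-month replicates 2 or 3. All 5 calls ended with no filter. Those of the 449-base, 321-base, 1284-base and 1513-base loci also ended with limma voom on recovered reads.

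Among the falls, 3 loci shared a profile over the libraries. The 2040-base locus and the 4595-base locus lie on the same unplaced scaffold. The 699-base locus lies at 8502465 to 8503163 on chromosome 24, 78136 bases from its nearest gene, tfap2a. The 2040-base locus had 0.133, 0.547 and 0.340 FPKM at 36 months, against 13.1, 20.9 and 25 FPKM at 6 months (difference -3.91, SE 0.61, adjusted p = 0.007). The 4595-base locus had 0.355, 0.316 and 0.402 FPKM at 36 months, against 16.7, 17.6 and 18.2 FPKM at 6 months (difference -3.77, SE 0.61, adjusted p = 0.00828). The 699-base locus had 0, 0.479 and 0.165 FPKM at 36 months, against 11.2, 11.2 and 14.1 FPKM at 6 months (difference -3.45, SE 0.49, adjusted p = 0.00484). In each of the 3, all libraries of 36 months were low and so was 24-month replicate 1, with 0.600 FPKM for the 2040-base locus, 0.311 for the 4595-base locus and 0.146 for the 699-base locus. The other libraries of 24 months held 2.96 to 8.18 FPKM.

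The 497-base locus at 23861090 to 23861586 on chromosome 15 was also nearly absent at 36 months. It had 0.274, 0 and 0 FPKM at 36 months, against 4.21, 26.4 and 29.4 FPKM at 6 months (difference -3.91, SE 0.67, adjusted p = 0.00966). Its nearest gene, si:ch211-167j9.4, lies 2610 bases away and fell as well, by 2.68 on the same scale (adjusted p = 0.0167). Over the 12 libraries the locus and the gene had a correlation of 0.983, given as a description. The 722-base locus on an unplaced scaffold had 0, 0.155 and 0 FPKM at 36 months, against 4.35, 2.17 and 5.61 FPKM at 6 months (adjusted p = 0.00445). The 888-base locus at 923628 to 924515 on chromosome 9 lies 66 bases downstream of tmem37 and had 2.76, 1.88 and 1.3 FPKM at 36 months, against 8.24, 28.9 and 11.2 FPKM at 6 months (adjusted p = 0.00865). The calls of these 6 falls held without any 1 library. Those of the 2040-base, 4595-base and 497-base loci ended with limma voom on recovered reads, at adjusted p of 0.0868, 0.0778 and 0.167. That of the 888-base locus ended with only the 2 ages in the fit (adjusted p = 0.0554).

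The 5542-base locus at 64202880 to 64208421 on chromosome 5 carries the domain of a retroviral envelope protein, and its call also held without any 1 library but ended with limma voom (adjusted p = 0.0587). It had 0.295, 0.564 and 0.312 FPKM at 36 months, against 11.6, 5.78 and 4.38 FPKM at 6 months (difference -2.48, SE 0.48, adjusted p = 0.0141). The libraries of 12 and 24 months held 1.09 to 7.97 FPKM, so the low values were those of 36 months.

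The remaining 3 falls rested more on single libraries. The 1452-base locus at 17979721 to 17981583 on chromosome 21 had 0.187, 0.0768 and 0.398 FPKM at 36 months, against 10.6, 7.30 and 6.72 FPKM at 6 months. At 12 months it was split, with 0.0707, 0.0782 and 10.8 FPKM, and its call (adjusted p = 0.0352) ended without any 1 library of 6, 24 or 36 months, where the adjusted p reached 0.0961. The 1505-base locus on an unplaced scaffold had 0.452, 0.816 and 0 FPKM at 36 months, against 7.26, 8.17 and 4.14 FPKM at 6 months. Its call ended without any 1 library of 36 months or 6-month replicate 2, with an adjusted p of up to 0.0798. The 1368-base locus at 18077305 to 18087618 on chromosome 9, whose nearest gene is tnfsf11, had 0.298, 0 and 0.338 FPKM at 36 months, against 5.63, 2.03 and 9.48 FPKM at 6 months. Its call ended without 36-month replicates 1 or 2 or 6-month replicate 3, with an adjusted p of up to 0.0661. All 3 of these calls also ended with limma voom on recovered reads.

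**Figure D3:**
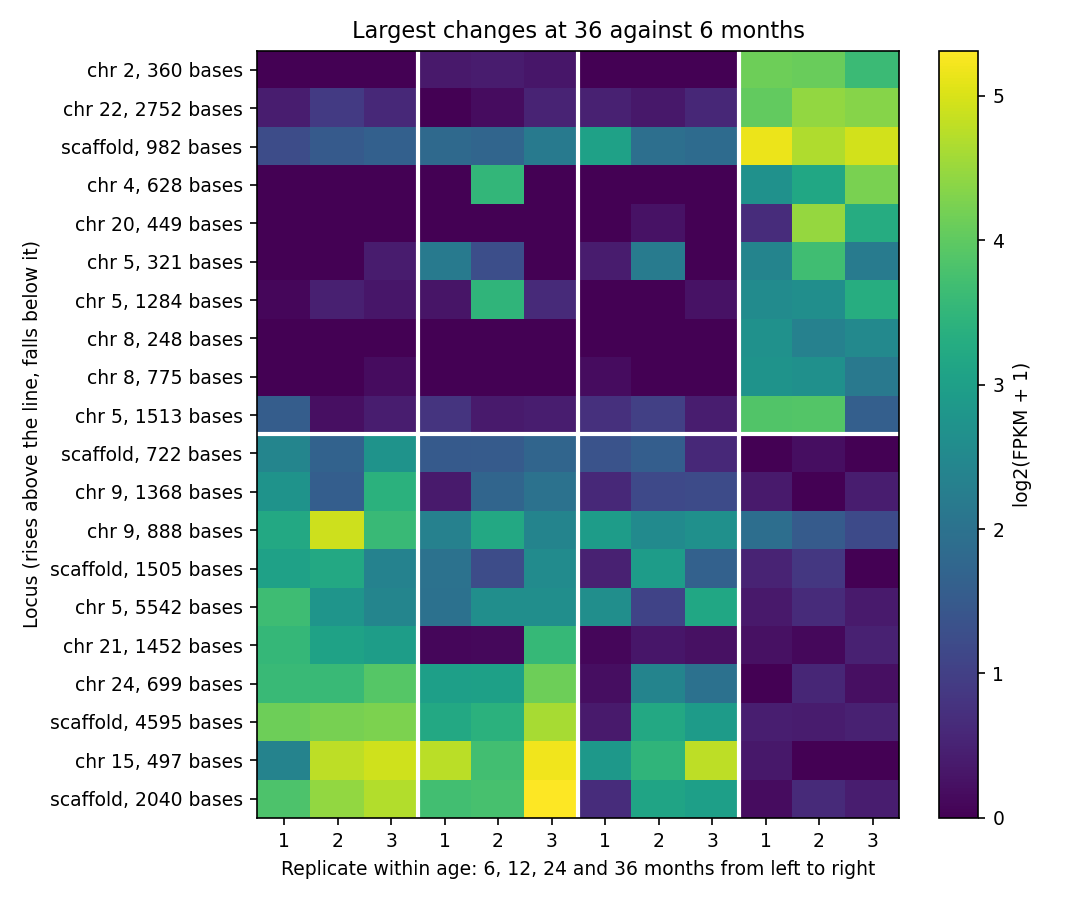
Level as log2(FPKM + 1) (colour) in each of 12 libraries (columns, by age and replicate) for the 10 largest rises (top) and the 10 largest falls (bottom) among loci past the test at 36 against 6 months. The 3 columns of 36 months stand apart in the 360-base locus and the 2752-base locus, while the 628-base locus and the 1284-base locus are also high in 12-month replicate 2.

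Changes of loci tended to go with those of the gene beside them. Across loci whose nearest gene was itself tested, the correlation of the 36 minus 6 month differences was 0.589 under 1 kb (n = 626), 0.553 at 1 to 5 kb (n = 498), 0.266 at 5 to 20 kb (n = 149) and 0.116 at 20 kb or more (n = 67). Under 1 kb it was 0.648 for loci downstream of the gene (n = 567) and 0.215 for loci upstream (n = 59). These correlations are descriptions over loci and genes measured in the same libraries, and some loci share a gene. Depth and spread also differed with distance. Over all loci of a band, the median locus had 44.4 reads under 1 kb and 14.1 at 20 kb or more. The median standard deviation within an age was 0.358 and 0.595 on the log2(FPKM + 1) scale. The part of depth and spread in these correlations was not tested. Of the 79 called loci with a tested nearest gene, that gene was called too for 28, or 35.4%. Among the 1261 loci not called it was called for 108, or 8.56%. The direction was the same in 27 of the 28 pairs, 12 with both higher and 15 with both lower, and 27 of the 28 loci lay downstream of the gene.

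**Figure D4:**
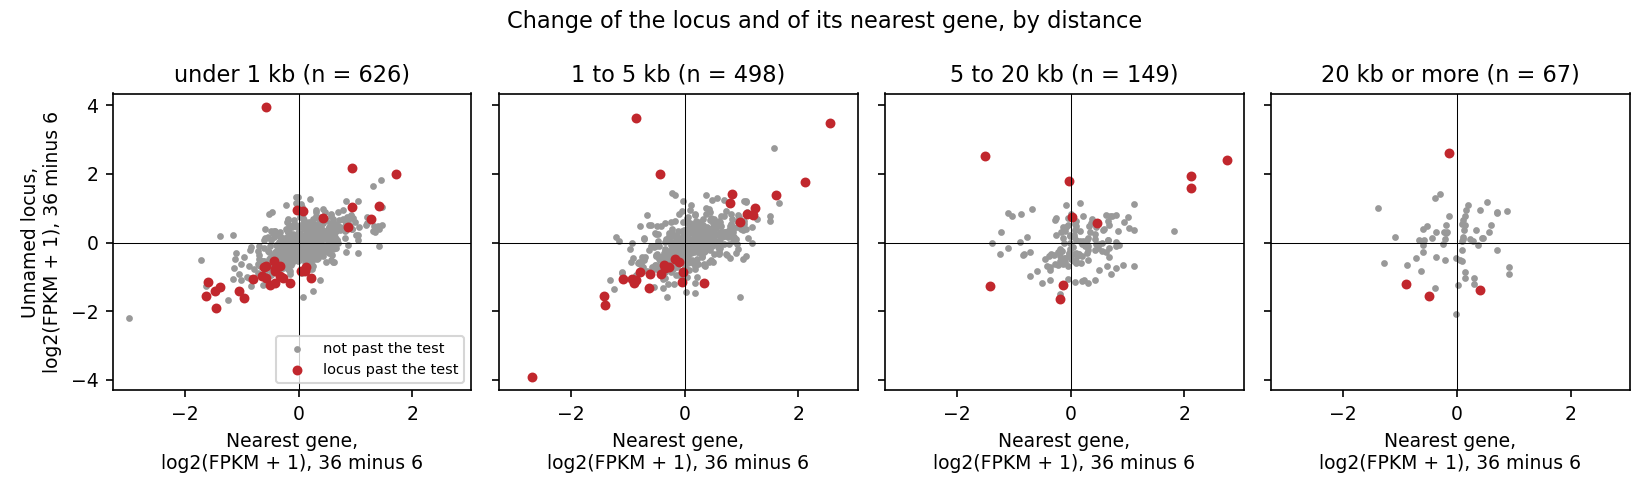
Difference in mean log2(FPKM + 1), 36 minus 6 months, of each locus (vertical axis) against that of its nearest gene (horizontal axis), in 4 bands of distance, with loci past the test in red. The cloud runs along the diagonal under 5 kb and is round at 20 kb or more, where the correlation across 67 loci was 0.116.

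The pairs that rose included 3 loci in a row on chromosome 19 (934381 to 944850) downstream of SLC45A4 (1 of many), a gene of a solute carrier family. The 670-base locus at 934381 to 935050 on chromosome 19 had 15.0, 13.2 and 20.3 FPKM at 36 months, against 3.69, 4.50 and 2.32 FPKM at 6 months (difference 1.94, SE 0.24, adjusted p = 0.00233). The 5472-base locus at 935409 to 940880 on chromosome 19 rose by 1.58 (adjusted p = 0.00865) and the 3375-base locus at 941476 to 944850 on chromosome 19 by 1.75 (adjusted p = 0.00685). The gene rose by 2.11 (adjusted p = 0.00966), to 23.0 ± 5.90 FPKM at 36 months, against 4.93 ± 2.97 FPKM at 6 months (SD, n = 3 each). For the 5472-base locus, the 3375-base locus and the gene, differences of similar size stood already at 12 against 6 months. They were 1.58, 1.75 and 1.93, and none passed the threshold (limma, adjusted p = 0.083, 0.083 and 0.107). The 5472-base and 3375-base loci averaged 20.9 and 9.41 FPKM at 12 months, and 11.8 and 6.54 FPKM at 24 months. The 670-base locus averaged 7.73 FPKM at 12 months, 8.18 at 24 and 16.2 at 36 months. The 3 loci lie 359 and 596 bases apart, so they are not independent of each other. The 9018-base locus at 50229338 to 50238355 on chromosome 8 lies 69 bases past slc25a37, a mitochondrial iron carrier, and had 26.9, 17.5 and 22.8 FPKM at 36 months, against 9.58, 14.8 and 7.19 FPKM at 6 months. Its difference of 1.05 (adjusted p = 0.0389) stood beside 1.42 for the gene (adjusted p = 0.0271). The 1164-base locus at 5014465 to 5015628 on chromosome 4 lies 1427 bases past ahcyl2, of the S-adenosylhomocysteine hydrolase-like family, and had 22.6, 20.7 and 19.7 FPKM at 36 months, against 8.17, 6.83 and 6.78 FPKM at 6 months (difference 1.42, adjusted p = 0.011). Its course was not steady, with means of 13.6 FPKM at 12 months and 8.52 FPKM at 24 months. The call of the 9018-base locus ended without any 1 of 8 libraries, with an adjusted p of up to 0.12, while the other 4 held without any 1 library.

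The pairs that fell included adamts15a, a secreted metalloprotease of the extracellular matrix. The 1912-base locus at 29609839 to 29611750 on chromosome 5, 924 bases past it, had 7.47, 5.84 and 7.79 FPKM at 36 months, against 29.7, 21.7 and 17.5 FPKM at 6 months (difference -1.56, SE 0.19, adjusted p = 0.00246). The gene averaged 10.1 ± 2.13 FPKM at 36 months and 33.1 ± 3.8 FPKM at 6 months (SD, n = 3 each), a difference of -1.63 (limma, adjusted p = 0.00167). At 12 and 24 months the locus held 7.48 to 10.9 FPKM, so its 6-month libraries were the high ones. The 1701-base locus at 35085743 to 35087443 on chromosome 23, 1326 bases past klf15, a Kruppel-like transcription factor of heart metabolism, had 8.96, 5.51 and 6.38 FPKM at 36 months, against 12.9, 13.9 and 12.9 FPKM at 6 months (difference -0.86, adjusted p = 0.014). It was already low at 12 and 24 months, with means of 6.96 and 5.06 FPKM. The 2306-base locus at 24096573 to 24098878 on chromosome 8, 2381 bases past adora1b, which encodes an adenosine receptor, had 3.01, 3.68 and 4.31 FPKM at 36 months, against 13.3, 19.9 and 13.5 FPKM at 6 months (difference -1.82, adjusted p = 0.0244). The 1818-base locus at 11587937 to 11589754 on chromosome 19, 264 bases past kcng2, which encodes a voltage-gated potassium channel subunit, fell by 1.15 (adjusted p = 0.00958). Its means were 3.72 FPKM at 6 months, 2.08 at 12, 3.13 at 24 and 1.13 at 36 months.

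Calls in this group were not equally firm. Those of the 1912-base locus and the 1818-base locus held without any 1 library. That of the 1701-base locus ended only without 36-month replicate 2, at an adjusted p of 0.0506. That of the 2306-base locus ended without any 1 library of 36 months or 6-month replicates 2 and 3, with an adjusted p of up to 0.0792. Of the 28 loci called together with their nearest gene, 10 stayed called without any 1 library.

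The exception in direction was the 248-base locus, which had reads at 36 months only. Its nearest gene, kazald3, lies 7138 bases away and averaged 7.48 ± 2.01 FPKM at 36 months and 23.4 ± 7.44 FPKM at 6 months (SD, n = 3 each). The gene fell by 1.51 (limma, adjusted p = 0.00617) where the locus rose by 2.51.

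Loci also lay near each other. There were 295 pairs of neighbouring loci under 5 kb apart, made of 554 loci, and the median correlation within a pair over the 12 libraries was 0.52. Both loci were called at 36 against 6 months in 7 pairs, with the same direction in all 7. The tables do not say whether the loci of a pair belong to a common transcript. In 1 of them, the 2165-base locus at 39258901 to 39261065 and the 2436-base locus at 39263500 to 39265935, both on chromosome 8 and 2435 bases apart, the 2436-base locus had 4.92, 2.70 and 2.80 FPKM at 36 months, against 0.429, 0.198 and 0.213 FPKM at 6 months (difference 1.77, SE 0.27, adjusted p = 0.00646). Both loci averaged under 1 FPKM at each of 6, 12 and 24 months and were admitted only through 36 months. Their shared rise and its p-value are therefore descriptions.

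No locus passed the test at 12 against 6 months with limma, against 0.0185% of all features (0.00616% higher, 0.0123% lower). At an unadjusted p under 0.05 there were 264 loci (10.1%), against 9.45% of all features, and limma voom on recovered reads also called 0. At 24 against 12 months 11 loci passed, 8 higher and 3 lower, against 0.715% of all features (0.487% higher, 0.228% lower). Between these ages the immune marker sums were 419 to 1421 FPKM at 24 months, against 169 to 341 at 12 months. Red blood cell sums were 1209 to 2947 FPKM at 24 months, against 5722 to 6671 at 12 months. Heart muscle sums were 6200 to 7466 FPKM at 24 months, against 8195 to 11658 at 12 months. Endothelium sums were 78.2 to 91.7 FPKM at 24 months, against 93.9 to 112 at 12 months. In none of these lists did the 2 ages overlap, and the part of the lists in these calls was not tested. No call among these 11 held without each of the 12 libraries.

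The 622-base locus on an unplaced scaffold, which carries the effector domain of dynamins, GTPases that pinch off membranes, was the largest rise there. It had 71.3, 93.4 and 96.2 FPKM at 24 months, against 30.7, 24.3 and 29.8 FPKM at 12 months (difference 1.58, SE 0.20, adjusted p = 0.0154). It also stayed high at 36 months, with 93.9, 72.1 and 78.0 FPKM, against 27.8, 49.0 and 39.2 FPKM at 6 months (difference 1.08, adjusted p = 0.0138, held without any 1 library). The 1035-base locus at 56211298 to 56212332 on chromosome 9 had 2.36, 2.43 and 3.99 FPKM at 24 months, against 0.198, 0.329 and 0.424 FPKM at 12 months (adjusted p = 0.0286). At 36 months it fell again, to 0.263, 0.539 and 0.669 FPKM (36 against 24 months, adjusted p = 0.0405). The 1186-base locus at 13328923 to 13330108 on chromosome 1, near hpf1, a cofactor of DNA damage signalling, had 3.44, 1.52 and 1.42 FPKM at 24 months, against 0.0866, 0 and 0 FPKM at 12 months (adjusted p = 0.034). Its 12-month values were also below those of 6 months, which were 2.48, 2.44 and 1.49 FPKM. The 1035-base locus averaged 0.477 FPKM over the other 9 libraries and was admitted only through 24 months.

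The falls at 24 against 12 months were 3. The 1062-base locus at 14822433 to 14824229 on chromosome 11 was low at 24 months only, with 0.576, 0.508 and 0.243 FPKM at 24 months, against 3.96, 3.32 and 3.72 FPKM at 12 months (difference -1.70, SE 0.24, adjusted p = 0.0203). It rose again by 1.56 at 36 against 24 months (adjusted p = 0.0197). The 1167-base locus at 44081014 to 44098206 on chromosome 11, with the domain of a cortactin-binding protein, had 3.06, 2.0 and 2.32 FPKM at 24 months, against 12.1, 14 and 5.94 FPKM at 12 months (adjusted p = 0.0208). The 488-base locus at 33972176 to 33979334 on chromosome 19, with a transposase domain, the enzyme that moves DNA transposons, had 0.627, 0.553 and 0 FPKM at 24 months, against 2.95, 3.49 and 2.70 FPKM at 12 months (adjusted p = 0.0284). The last averaged 0.907 FPKM over the other 9 libraries and was admitted only through 12 months. Of these 6 calls, that of the 622-base locus ended without 12-month replicates 1 or 2 or 24-month replicates 1 or 2, with an adjusted p of up to 0.0701. The other 5 ended without 12-month replicates 1 or 2 or any 1 library of 24 months, and the 1186-base locus also without 12-month replicate 3, with an adjusted p of up to 0.128.

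At 36 against 24 months 34 loci passed, 17 higher and 17 lower, against 1.12% of all features (0.481% higher, 0.635% lower), and 5 of them, all higher, held without any 1 library. These were the 360-base locus, the 2752-base locus, the 982-base locus, the 248-base locus and the 775-base locus, which were also named at 36 against 6 months. Both comparisons use the same 36-month libraries, so the second is no further support. Of the 17 called higher, 10 (58.8%) averaged under 1 FPKM without the 36-month libraries, against 38.5% of all features called higher. They include the loci of 360, 2752, 248 and 775 bases. Of the 17 called lower, 6 (35.3%) averaged under 1 FPKM without the 24-month libraries, against 7.77% of all features called lower. All of these were admitted only through the age where they were high, and so had to differ. The third largest rise, the 862-base locus on an unplaced scaffold, had 9.31, 5.83 and 6.29 FPKM at 36 months and 0 FPKM in every library of 24 months (adjusted p = 0.0181). It averaged 0.370 FPKM over the 9 younger libraries and so was admitted only through 36 months, and 6-month replicate 2 held 3.22 FPKM. The largest falls were the 497-base locus, described above (difference -3.58, adjusted p = 0.0392), the 2019-base locus at 47276148 to 47279454 on chromosome 13 and the 323-base locus at 6053365 to 6056496 on chromosome 24. The 2019-base locus, near lhcgr, a gonadotropin receptor gene, had 0, 0.332 and 0.0572 FPKM at 36 months, against 2.98, 7.52 and 4.73 FPKM at 24 months (adjusted p = 0.0214). The 323-base locus, near apbb1ip, had 0 FPKM in all 3 libraries of 36 months, against 3.16, 2.23 and 5.60 FPKM at 24 months (adjusted p = 0.0405). The loci of 2019 and 323 bases averaged 0.678 and 0.469 FPKM without the 24-month libraries and were admitted only through that age. The calls of the 862-base locus, the 497-base locus and the 323-base locus ended without any 1 library of 24 or 36 months, with an adjusted p of up to 0.13. That of the 2019-base locus ended without 24-month replicates 2 or 3 or any 1 library of 36 months, with an adjusted p of up to 0.0799.

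The F test across the 4 ages called 123 loci (4.73%), against 5.28% of all features. The highest mean was at 6 months in 36 of them, at 12 in 25, at 24 in 22 and at 36 months in 40. That is 29.3%, 20.3%, 17.9% and 32.5% of the loci called, against 27.8%, 14.9%, 19.4% and 37.9% of all 857 features called. The lowest mean was at 6 months in 30, at 12 in 26, at 24 in 15 and at 36 months in 52. These are 24.4%, 21.1%, 12.2% and 42.3% of the loci called, against 30.8%, 19.8%, 12.3% and 37.1% of all features called. The 5 smallest p-values belonged to the 360-base locus (adjusted p = 1.36e-05), the 2752-base locus (1.4e-05), the 248-base locus (0.00148), the 982-base locus (0.00162) and the 775-base locus (0.00211), all highest at 36 months. In 4 of these 5 the limit admits the locus only through 36 months, and over all 123 calls 33 averaged under 1 FPKM without their highest age. Of the 123 calls, 28 held without any 1 library, among them these 5. With a pseudocount of 0.1 the F calls of the 248-base and 775-base loci ended. The counts without 1 library ran from 45 without 36-month replicate 2 up to 218 without 6-month replicate 1.

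A Pfam protein domain was listed for 336 of the loci. The groups of domains below were drawn up after values had been seen, so they carry no test of their own. Domains of mobile elements (reverse transcriptase, integrase, transposase, gag and envelope) were the largest group with 101 loci, at a median of 1.72 FPKM. Of these, 6 were called at 36 against 6 months, 4 higher and 2 lower, against 8.25% of all features. The group's median difference was 0.22 at 12 against 6 months, -0.26 at 24 against 12, 0.24 at 36 against 24 and 0.29 at 36 against 6 months, against 0.00, 0.00, 0.01 and 0.00 over all features. In the 89 other unnamed loci with such domains it was 0.16, -0.26, 0.17 and 0.11. Loci of the same libraries are not replicates of an age. Without its highest locus the group summed to 166 to 297 FPKM at 6 months, 248 to 324 at 12, 154 to 209 at 24 and 232 to 448 at 36 months. The sums of 12, 24 and 36 months thus overlapped those of 6 months, while every library of 24 months lay below all of 12 and 36 months. With that locus included, each age overlapped the next. Near-identical copies of mobile elements share reads, and how reads with several matches were counted is not given in the sources used here, so these levels are uncertain.

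The 2 lower mobile loci were the 5542-base locus, described above, and the 3638-base locus at 44675397 to 44679034 on chromosome 21, with a transposon endonuclease domain. The 3638-base locus had 3.40, 3.65 and 2.92 FPKM at 36 months, against 5.36, 5.37 and 5.56 FPKM at 6 months (adjusted p = 0.0209). Among the higher ones, the 7133-base locus at 45337083 to 45345010 on chromosome 7, with a reverse transcriptase domain, the enzyme that copies RNA into DNA, had 7.94, 13.5 and 8.06 FPKM at 36 months, against 1.67, 2.03 and 0.393 FPKM at 6 months (difference 2.23, SE 0.43, adjusted p = 0.0144). Its call ended only without 36-month replicate 2, at an adjusted p of 0.0545. The 684-base locus at 21432640 to 21433323 on chromosome 10, with a retrotransposon gag domain, had 3.58, 2.61 and 2.36 FPKM at 36 months, against 0.834, 0.529 and 0.303 FPKM at 6 months (adjusted p = 0.0122), and held without any 1 library. The 3229-base locus at 50751808 to 50755036 on chromosome 17 (adjusted p = 0.0484) and the 3125-base locus at 44135879 to 44139003 on chromosome 15 (adjusted p = 0.046) were the others, and their calls ended without any 1 of 11 and 10 libraries. That of the 3638-base locus ended without 36-month replicates 1 or 3 or 6-month replicates 2 or 3, with an adjusted p of up to 0.0639. The loci of 684 and 3125 bases averaged under 1 FPKM over the younger libraries and were admitted only through 36 months. At 6, 12 and 24 months the 684-base locus averaged 0.555, 0.611 and 1.23 FPKM, and the 3125-base locus 0.482, 1.03 and 0.739 FPKM. The values and p-values of these loci are therefore descriptions.

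Of the other mobile loci, only the 488-base locus, described above, passed a pairwise test, at 24 against 12 months. The mobile loci named next passed no test between ages and differed widely among libraries of an age. The 2692-base locus on an unplaced scaffold, with an integrase domain, had 162, 8.73 and 11.9 FPKM at 6 months, 35.6, 24.2 and 19.8 at 12, 297, 336 and 167 at 24, and 116, 11.4 and 18.3 at 36 months. Every library of 24 months was above all 9 others, but the spread elsewhere was wide and neither comparison with 24 months passed (adjusted p = 0.171 at 24 against 12 and 0.167 at 36 against 24 months). The 3653-base locus at 10230145 to 10233797 on chromosome 25 and the 2150-base locus at 42690534 to 42692683 on chromosome 17, both with a reverse transcriptase domain, were high in the same 2 libraries. The 3653-base locus had 127 FPKM in 36-month replicate 2 and 61.3 FPKM in 12-month replicate 1, and at most 5.25 FPKM in the other 10. The 2150-base locus had 31.3 and 14.3 FPKM in those libraries and at most 1.52 FPKM elsewhere. The 1082-base locus at 12447385 to 12448466 on chromosome 10, of the same domain, was instead high in 6-month replicate 2 (27.6 FPKM) and 12-month replicate 3 (30.6 FPKM).

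Domains of muscle and the cell skeleton were listed for 22 loci, at a median of 7.92 FPKM. None was called at 36 against 6 months with limma, against 8.25% of all features, 4 had an unadjusted p under 0.05 (18.2%, against 25.6%), and limma voom also called 0. Besides the 1864-base locus, the high ones were the 2827-base locus at 43226073 to 43243840 on chromosome 15 (mean 64.8 FPKM), with spectrin repeats, the 734-base locus at 73819895 to 73866280 on chromosome 7 (mean 52.4 FPKM), with an immunoglobulin I-set domain as in titin-like proteins, and the 450-base locus at 45403866 to 45416765 on chromosome 12 (mean 45.5 FPKM), of the vinculin family, which anchors actin at cell contacts. The 734-base locus had 18.4, 36.6 and 41.4 FPKM at 36 months, against 37.0, 67.8 and 104 FPKM at 6 months, and these groups overlapped (adjusted p = 0.0909). Of these loci, 21 of 22 joined several blocks, as did 97.7% of tested protein-coding genes.

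Domains of ion channels and calcium release were listed for 9 loci. At 36 against 6 months none was called with limma, none had an unadjusted p under 0.05 (against 8.25% and 25.6% of all features) and limma voom called 0. At 12 against 6 months 2 had an unadjusted p under 0.05 (22.2%, against 9.45% of all features). At 36 against 24 months 1 did (11.1%, against 16.7%). A run of 5 of them on chromosome 17 (142265 to 570568, minus strand) carries domains of the ryanodine receptors, which release calcium from the muscle cell's internal store. Their means were 1.26 FPKM (the 1743-base locus at 142265 to 153913), 1.51 (the 759-base locus at 205505 to 213269), 1.34 (the 1614-base locus at 216481 to 307838), 1.92 (the 2589-base locus at 518908 to 529870) and 2.20 FPKM (the 3079-base locus at 531004 to 570568). All 5 were highest in 6-month replicate 2, at 4.15 to 7.21 FPKM. The 3079-base locus had 2.01, 6.89 and 2.43 FPKM at 6 months, 0.434, 1.51 and 0.513 at 12, 1.85, 4.29 and 0.378 at 24, and 3.23, 0.471 and 2.44 at 36 months. Its libraries of 6 months stood above those of 12 months. Those of 24 months overlapped both 12 and 36 months. The 5 share neighbourhood and domains and are not independent.

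Kinase and phosphatase domains were listed for 11 loci, of which 2 were called at 36 against 6 months, against 8.25% of all features. At an unadjusted p under 0.05 there were 8 (72.7%), against 25.6% of all features, which is given as a description of a group chosen after its values were seen. The 5173-base locus at 73787080 to 73800445 on chromosome 7, with a tyrosine phosphatase domain, had 20.8, 29.7 and 28.1 FPKM at 36 months, against 41.7, 52.2 and 78.8 FPKM at 6 months (difference -1.07, SE 0.23, adjusted p = 0.0208). Its call ended without 36-month replicate 1 or 6-month replicate 3, with an adjusted p of up to 0.0676. The 1859-base locus at 642617 to 647026 on chromosome 21, with a protein kinase domain, had 6.95, 7.80 and 8.51 FPKM at 36 months, against 3.99, 4.02 and 4.75 FPKM at 6 months (difference 0.74, SE 0.14, adjusted p = 0.0131), and held without any 1 library. Immune domains were listed for 16 loci. At 36 against 6 months 0 were called with limma, 3 had an unadjusted p under 0.05 (18.8%, against 25.6% of all features) and limma voom called 0. The highest, the 1381-base locus at 47097467 to 47187639 on chromosome 18, with an immunoglobulin V-set domain, had 22.3, 32.3 and 24.0 FPKM at 36 months, against 23.9, 37.8 and 33.1 FPKM at 6 months.

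**Figure D5:**
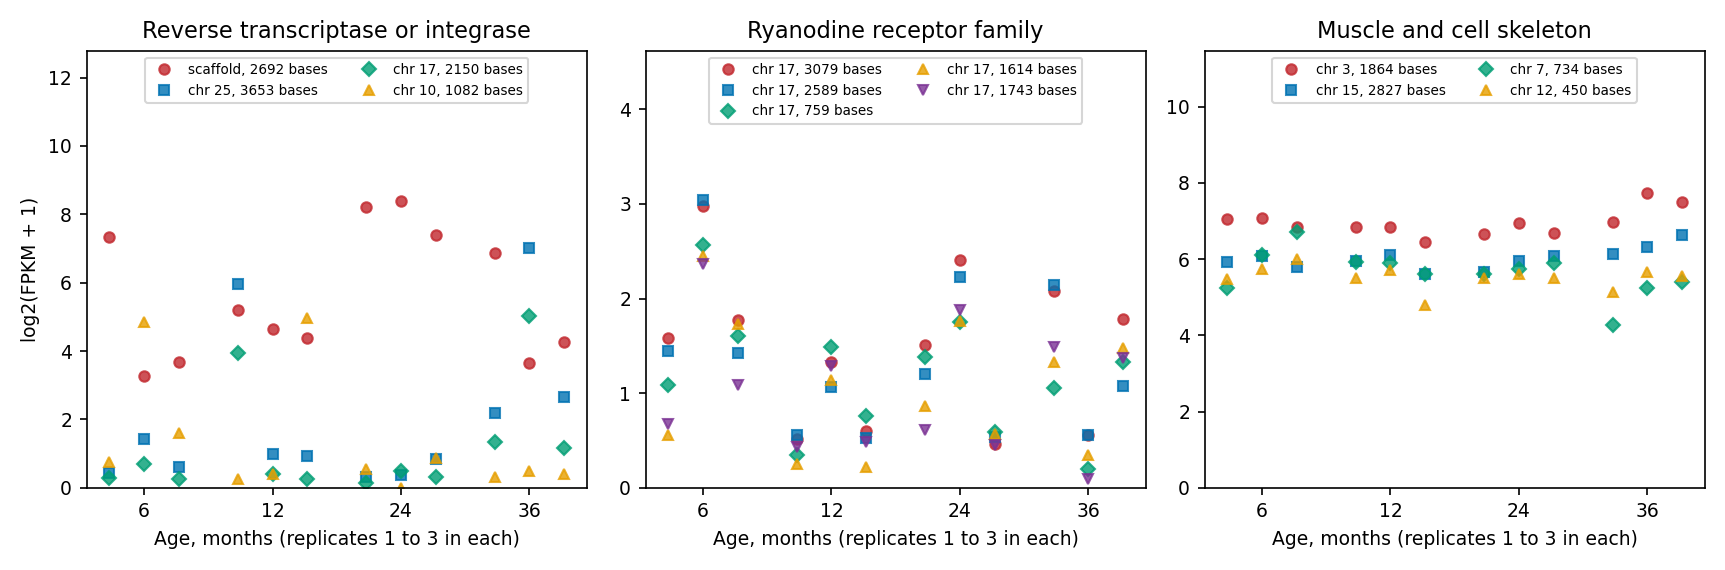
Level as log2(FPKM + 1) in each library (replicates 1 to 3 within each age, in months) of loci with mobile-element domains (left), ryanodine receptor domains (middle) and muscle or cell skeleton domains (right), each labelled by chromosome and length. The 5 ryanodine receptor loci are all highest in 6-month replicate 2, while the 3653-base locus and the 2150-base locus are highest in 36-month replicate 2.

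In 42 loci a single library held over 50% of the summed FPKM. The library was 36-month replicate 2 for 11 of them and 6-month replicate 2 for 8. The 573-base locus at 43634391 to 43634963 on chromosome 4 was the extreme, with 36.4 FPKM in 24-month replicate 2 and 0 in the other 11 libraries. The 807-base locus at 46485383 to 46486189 on chromosome 17 had 79.1 FPKM in 36-month replicate 2 and 30.5 FPKM in 12-month replicate 1, the same libraries as the 3653-base locus and the 2150-base locus, and at most 2.29 FPKM elsewhere. The 1857-base locus at 22641224 to 22643080 on chromosome 14 and the 411-base locus at 22972005 to 22973396 on chromosome 7 were both highest in 6-month replicate 2, at 12.4 and 10.8 FPKM, and next highest in 12-month replicate 3, at 3.92 and 3.84 FPKM. These 2 libraries are also those in which the 1082-base locus was high.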

How the data were processed

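Hearts of zebrafish of 4 ages were measured by RNA-seq, 3 libraries an age. The authors deposited FPKM per library in 4 tables, with 50640 features of identical annotation. CASAVA 1.8 (base calling), HISAT2 2.0.5 (alignment) and the GRCz11 build are named in the submitters' processing notes. The counting tool, the annotation release and the assembly of unnamed loci are not given in the sources used here.

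The identifiers that the tables give to unnamed loci are not printed, and loci are named by length and position. Overlaps were computed from the deposited spans, ignoring strand, and the nearest gene is the closest row with an Ensembl identifier. FPKM times length gave whole reads for 100% of values within 0.01 read. FPKM + 1 was log2 transformed and fitted with limma 3.58.1 (R 4.3.3; 4 age means, eBayes with trend, Benjamini-Hochberg over 16223 features with mean FPKM of at least 1, threshold 0.05). The script was tested on simulated data with known changes at 36 against 6 months in some of the loci. It called 4 of 100 loci changed 2-fold and 43 of 100 changed 4-fold. A locus not called may therefore still differ. All other features were left unchanged in the simulation, whereas the real fit called 1338 of 16223 at 36 against 6 months. With fewer changed features the Benjamini-Hochberg adjustment is stricter, so these shares may understate those of the real fit. Also tried were no filter, a minimum of 5 FPKM, a pseudocount of 0.1, median-ratio and quantile scaling, no trend, voom on recovered reads, a replicate block, only the 2 ages compared, leaving out each library, and other definitions of the loci.

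Loci and lists were chosen with earlier results of these data known. Named were the 10 highest, the 10 largest rises and falls at 36 against 6 months and 3 for other pairs (called, groups not overlapping), the 5 smallest F p-values, the 3 longest and those nearest the limit. Loci with domains, called nearest genes, close neighbours or a single dominant library were chosen after their values were seen. Of the marker lists, red blood cells summed to 1209 to 6671 FPKM per library, skeletal muscle to 975 to 4775, endothelium to 68.1 to 122, epicardium and fibroblasts to 4.35 to 17.5 and gonad to 0.0554 to 1.37.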

Additional observations from a re-analysis of the deposited data

How the results depend on the processing

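At 36 against 6 months the 173 calls became 100 with limma voom on recovered reads and 84 with no filter. They became 56 with a minimum of 5 FPKM (fewer loci tested) and 59 with only those 2 ages in the fit. They ran from 61 to 232 when 1 library was left out. Loci at least 5 kb from every named gene held 68 of the 173. Counts over these loci, here and below, cover only a part of the loci and are not losses. The share called was 7.49% at 5 to 20 kb, 6.09% at 20 kb or more and 12.1% with no named gene on the scaffold. It was 6.22% under 1 kb and 5.94% at 1 to 5 kb, against 8.25% of all features. Of the 173, 95 were also called by voom. Loci with no named gene on their scaffold are counted here as at least 5 kb away, though their distance is not known. They hold 17 of the 68 calls at 36 against 6 months and 3 of the 6 at 24 against 12. At 36 against 24 months they hold 1 of the 13, and they hold 10 of the 51 F calls. At 12 against 6 months the count of 0 became 1 with a pseudocount of 0.1 and ran from 0 to 5 when 1 library was left out. At 24 against 12 months the 11 calls became 4 with voom, 3 with no filter, 5 with a replicate block and 6 over loci at least 5 kb from named genes, with 0 to 42 when 1 library was left out. At 36 against 24 months the 34 calls became 22 without the trend, 9 with voom, 6 with the minimum of 5 FPKM, 16 with no filter, 58 with only 2 ages, 17 with the pseudocount of 0.1, 16 with a replicate block and 13 over loci at least 5 kb from named genes, with 8 to 69 when 1 library was left out. The 123 F calls became 72 with voom, 50 with the minimum of 5 FPKM, 48 with no filter, 65 with a replicate block and 51 over loci at least 5 kb from named genes, with 45 to 218 when 1 library was left out. Where no construction is named, the cause was not tested. Median-ratio and quantile scaling gave 172 and 170 calls at 36 against 6 months. Over loci with a mean of at least 10 reads, chosen after seeing the data, it was 146, with fewer loci counted. None of the 37 calls of loci named by rule for a comparison turned direction in the settings where it was fitted (10 of them with the minimum of 5 FPKM); the other loci named were not followed through all settings. Of the 20 named at 36 against 6 months, 6 stayed called in all of them. Same-numbered libraries did not deviate together (18 pairs, correlations -0.154 to 0.106, 1 over 0.1). These correlations cannot show whether such libraries were prepared together, and the labels do not say. The block, which gave 131 calls at 36 against 6 months, therefore rests on the replicate numbers alone. Depth limits 593 loci, which average under 10 reads.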
